A study of Mus musculus with 10 samples.

Results

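Heterotrimeric G proteins, their regulators and their direct effector enzymes were followed through the formation of the mouse neocortex. The genes were chosen by a rule on their names: Gα subunits (Gna followed by letters or digits), Gβ subunits (Gnb1 to Gnb5), Gγ subunits (Gng), regulators of G protein signalling (Rgs), adenylyl cyclases (Adcy), phospholipase C β enzymes (Plcb) and the Gprin proteins. Of the 6147 genes in the deposited table, 29 matched: 10 Gα, 4 Gβ, 4 Gγ, 5 RGS, 3 adenylyl cyclase, 2 phospholipase C β and 1 Gprin gene. The rule uses gene names and no measured value, but it was set with earlier results of these data known. Other genes of these families are not analysed here.

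A heterotrimeric G protein couples a receptor in the cell membrane to enzymes and channels inside the cell. The activated receptor exchanges GDP for GTP on Gα, which separates from the Gβγ dimer, and both parts then act on targets such as adenylyl cyclase, phospholipase C β and ion channels. RGS proteins speed up GTP hydrolysis on Gα and so end the signal. In the developing cortex, receptors of this kind act in progenitor division, in the migration of newborn neurons and in axon growth, and in the mature brain Gαo is among the most abundant Gα proteins.

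The RNA was that of the whole neocortex, frozen, of wild-type CD1 mice, an outbred strain. There were 4 embryonic stages named by days of gestation, the first E12.5 and E14 and the later ones E15.5 and E17, and P0, the day of birth. Each stage had 2 libraries of polyadenylated RNA, called biological duplicates by the submitters, and 10 libraries were made in all. No group was treated or mutant. The sources used here do not say from how many animals or litters the libraries came. The p-values thus set differences between stages against the spread between these libraries. Values are TPM, transcript abundances scaled by the length of the gene and by the total of the library, which let genes be compared with one another.

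The depth of the libraries is unknown, so no counting error could be attached to a value. The SD over all genes of the log2 difference between the libraries of a stage was 0.285 at E17 and 0.0880 to 0.176 at the other stages. At E17, 22 of the 29 genes were higher in replicate 1 than in replicate 2. Cortical neuron markers, 13 of 16 listed genes in the table, summed to 3009 and 3047 TPM at E12.5 and to 10777 and 11752 TPM at P0, while 12 of 15 progenitor markers fell in sum from 2049.6 and 2175 TPM to 270.4 and 276 TPM. From E12.5 to P0, 11 neuron markers were higher and 2 lower at adjusted p under 0.05 in limma, and 12 progenitor markers were lower. Of all genes tested, 27.1% were higher and 51.0% lower. Tbr1, a neuron marker, fell from 141 and 147 TPM to 69.3 and 77.6 TPM. In whole tissue, fewer cells of a type and less RNA per cell cannot be told apart. Markers of red blood cells (3 genes), choroid plexus (2) and meninges (5) summed to 1975 and 1880.3 TPM, 1405 and 1517 TPM, and 111 and 106 TPM at E14, and to 9.84, 4.25 and 3.03 TPM at most in the E15.5 libraries. Their part in the changes between E14 and E15.5 described here was not tested.

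Sequence upstream of the start sites is shown for the 3 Gγ genes with the largest changes, which went in opposite directions, and for Rgs7, which had the largest change of all 29 genes on the log2(TPM + 1) scale. The sequences are from RefSeq on GRCm38.p6, on the strand of the gene, and hold the longest stretch within 250 bases before the start that overlaps no annotated exon. Capitals mark matches to the GC box GGGCGG, the CCAAT box, the cAMP response element TGACGTCA or the E-box CANNTG, on either strand.
Gng2, chr14:19976694-19976943, minus strand: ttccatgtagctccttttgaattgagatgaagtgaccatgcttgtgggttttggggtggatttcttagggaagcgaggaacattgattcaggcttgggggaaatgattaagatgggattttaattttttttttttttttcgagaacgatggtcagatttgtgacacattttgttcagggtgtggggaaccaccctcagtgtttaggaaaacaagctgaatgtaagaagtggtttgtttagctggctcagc
Gng3, chr19:8839247-8839327, minus strand: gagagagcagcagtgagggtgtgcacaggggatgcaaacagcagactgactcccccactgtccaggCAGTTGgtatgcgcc
Gng5, chr3:146499586-146499654, plus strand: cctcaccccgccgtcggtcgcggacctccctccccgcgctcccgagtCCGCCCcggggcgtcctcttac
Rgs7, chr1:175492546-175492795, minus strand: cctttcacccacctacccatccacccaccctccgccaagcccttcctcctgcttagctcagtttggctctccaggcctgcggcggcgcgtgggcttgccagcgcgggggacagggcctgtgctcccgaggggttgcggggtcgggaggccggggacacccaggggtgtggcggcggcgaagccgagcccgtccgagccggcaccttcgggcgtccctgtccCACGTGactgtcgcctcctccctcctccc

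The windows differed in base composition: G and C made up 41.2% of the bases shown for Gng2, 60.5% for Gng3, 78.3% for Gng5 and 72.4% for Rgs7, against a median of 52.4% over the 250 bases before 32851 RefSeq start sites. The shown part of Gng5 held 1 GC box, the shown parts of Gng3 and Rgs7 held 1 E-box each, and that of Gng2 held none of the 4 motifs. No base lay in more than 1 motif. Over the whole 250 bases, a promoter entry was found for 25 of the 29 genes (31 start sites). The GC box occurred at 61.3% of these start sites and at 61.2% of the 6165 start sites of all genes tested, the E-box at 54.8% and 55.2%, the CCAAT box at 12.9% (4 start sites) and 34.5%, and the cAMP response element at 0 start sites and 2.82%. Over all 32851 start sites the shares were 32.7%, 66.2%, 33.8% and 1.55%. A match describes letters and is not a binding site.

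Transcripts of the 29 genes made up a growing part of the neocortical RNA. Together they held 0.695% ± 0.002 of each library's TPM at E12.5 and 0.824% ± 0.005 at E14 (mean ± SD, n = 2), then 1.33% ± 0.002 and 1.58% ± 0.024 in the E15.5 and E17 libraries, and 1.83% ± 0.074 at birth. The most abundant of them was Gng2, which was 38.2% of the sum at E12.5 and 60.7% at P0. The mean of 13 genes rose at all 4 steps between stages (Adcy1, Gnai1, Gnao1, Gnaq, Gnaz, Gnb2, Gnb4, Gng2, Gng3, Gprin1, Rgs6, Rgs7 and Rgs10), and the mean of 3 fell at all 4 (Gna13, Gng5 and Rgs12). Rgs12 was nearly level from E14 to E15.5, with means of 21.58 and 21.55 TPM and a change of 0.0015 on the log2(TPM + 1) scale. The highest mean was at P0 for 20 genes, at E12.5 for 7 and at E17 for 2 (Adcy6 and Gna12).

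All 29 genes had a mean of at least 1 TPM and were tested with limma on log2(TPM + 1), with p adjusted by the Benjamini-Hochberg method over all 6048 genes tested and called under 0.05. Over the 5 stages, 27 of 29 genes were called by the moderated F test (82.9% of all genes tested were called). The other two were Gna12 (adjusted p 0.0949) and Rgs12 (0.0614). From E12.5 to P0, 28 of 29 were called (78.2% of all genes tested). Of these, 20 were higher at P0 (27.1% of all genes tested were called higher) and 8 were lower (51.0% of all genes tested). In each of the 29 genes the P0 libraries did not overlap those of E12.5, which was so for 90.9% of all genes tested. The median change of the 29 was 0.89 on the log2 scale, and that of all genes tested was -0.27. With libraries rescaled by the median of ratios, which moved the median of all genes to -0.0063, or by quantiles (-0.049), 20 were called higher and 5 lower. The shares of all genes tested, 27.1% and 51.0%, are those of the TPM as deposited, and shares under these rescalings are not given here. Fewer of the 29 were also called lower when E12.5 replicate 2 was left out. The size of a change on this scale depended on the pseudocount for genes of few TPM: with 10 TPM in place of 1, the change was 2.35 for Rgs7 (4.39 with 1), 2.46 for Rgs6 (4.24), 1.02 for Rgs10 (1.998), 1.05 for Adcy2 (2.45), -0.45 for Plcb3 (-0.94), -0.35 for Adcy6 (-0.54) and -0.16 for Rgs3 (-0.29). It depended on the scaling for genes of small change: with the median of ratios it was 0.62 for Gna11 (0.35 as deposited), 0.54 for Gnas (0.26), -0.21 for Gna13 (-0.48) and -0.21 for Gnai3 (-0.49), and by quantiles it was -0.39 for Plcb3.

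**Figure D1:**
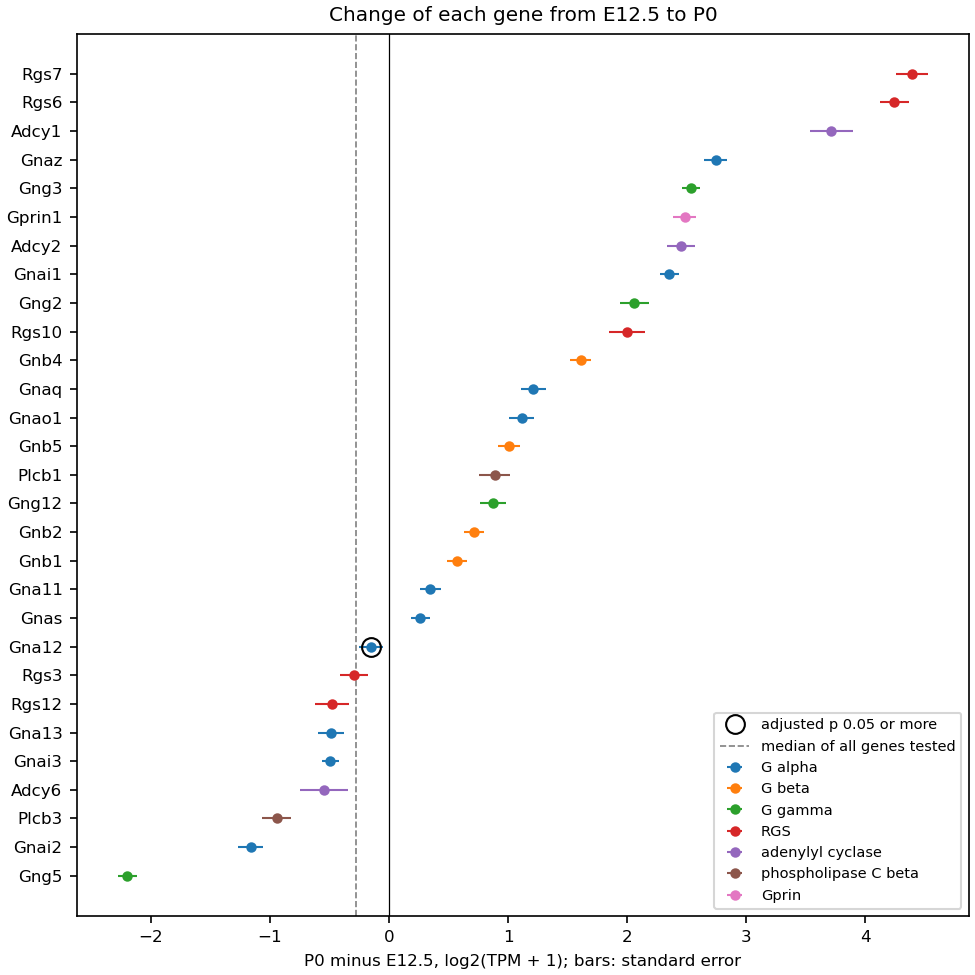
Change of each of the 29 genes from E12.5 to P0 (horizontal axis, P0 minus E12.5 on the log2(TPM + 1) scale) with its standard error from limma as a bar, coloured by role. Genes run from Rgs7 at 4.39 to Gng5 at -2.20, and Gna12, ringed, is the gene with an adjusted p above 0.05; the dashed line is the median of all 6048 genes tested, -0.27.

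Gγ subunits are small lipid-anchored proteins that, bound to Gβ, hold the dimer at the membrane. Gng2, a common Gγ of neurons, was the most abundant of the 29 genes and the second most abundant of all listed genes in each library from E15.5 on, after Tmsb4x, which encodes an actin-binding peptide. It was at 2702 and 2605 TPM at E12.5, 3761 and 3904 TPM at E14, 8048 and 8035 TPM at E15.5, 9811 and 10004 TPM at E17, and 10489.9 and 11704 TPM at P0. Libraries of different stages did not overlap at any step. The gene rose 4.18-fold from E12.5 to P0 (log2 change 2.06, SE 0.12, adjusted p 2.35e-08 in limma), and the step from E14 to E15.5 made up 51.9% of that log2 change. In GRCm38 it lies on the minus strand of chromosome 14, from 19872559 to 19977627 by the GENCODE annotation. The sequence shown for Gng2 precedes a RefSeq start site and lies inside that span, so the 2 annotations differ in where the gene begins.

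Gng3, another neuronal Gγ, was at 260.4 and 264 TPM at E12.5, 373 and 369.7 TPM at E14, 864 and 905 TPM at E15.5, 1113 and 1101 TPM at E17, and 1594 and 1457 TPM at P0. It rose 5.82-fold (log2 change 2.53, SE 0.08, adjusted p 1.05e-10), and it was called at each of the 4 steps with all 10 libraries in the fit. Gng3 lies on the minus strand of chromosome 19 (8836933 to 8839194), and exons of Bscl2 on the other strand overlap its exons. The libraries were made with a stranded kit, but the sources used here do not say whether the counting used strand.

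Gng5, a Gγ known from the proliferative zones of the embryonic brain, went the other way. It was at 307 and 288 TPM at E12.5, 276 and 267 TPM at E14, 134 and 133 TPM at E15.5, 102 and 91.2 TPM at E17, and 66.7 and 61.6 TPM at P0. The P0 mean was 0.216 times the E12.5 mean (log2 change -2.20, SE 0.08, adjusted p 4.36e-10). Gng5 was the gene of the 29 that fell most from E14 to E15.5 (-1.02, adjusted p 1.67e-06) and the one called lower from E15.5 to E17 (-0.47, adjusted p 0.00238, which became 0.065 when the fit held no other stages). It lies on the plus strand of chromosome 3, from 146499807 to 146505572.

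Gng12, a broadly expressed Gγ, followed a different course. It was at 127 and 111 TPM at E12.5, 102 and 122 TPM at E14 and 102 and 102 TPM at E15.5, and then at 143 and 145 TPM at E17 and 200.3 and 239 TPM at P0. The E12.5 and E14 libraries overlapped. Its rise was called from E15.5 to E17 (0.50, adjusted p 0.00832) and from E17 to P0 (0.60, adjusted p 0.00155). Within the 4 Gγ genes, the share of Gng5 fell from 8.92% of the summed TPM at E12.5 to 0.4985% at P0, that of Gng3 was 7.88% and 11.9%, and that of Gng2 was 79.6% and 85.9%.

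The difference between 2 genes within a library was followed for 4 pairs and tested for any change over the 5 stages by exact permutation of its F statistic, over the 945 ways to split the 10 libraries into pairs (smallest possible p 0.00106). The pairs were chosen with earlier results of these data known, so these p-values are not independent evidence of a crossing, and they do not test the change between single stages. On the log2 scale, Gng3 minus Gng5 was -0.24 and -0.12 at E12.5, 0.43 and 0.47 at E14, 2.68 and 2.75 at E15.5, 3.43 and 3.58 at E17, and 4.56 and 4.54 at P0. By TPM, Gng5 was thus the higher of the pair in both E12.5 libraries and the lower in all later ones. The order of 2 genes by TPM depends on the gene lengths used, which the sources used here do not give. From E12.5 to P0 the difference rose by 4.73, and the F test over the 5 stages gave an exact p of 0.00106, the smallest possible (0.00212 adjusted over the 4 pairs).

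**Figure D2:**
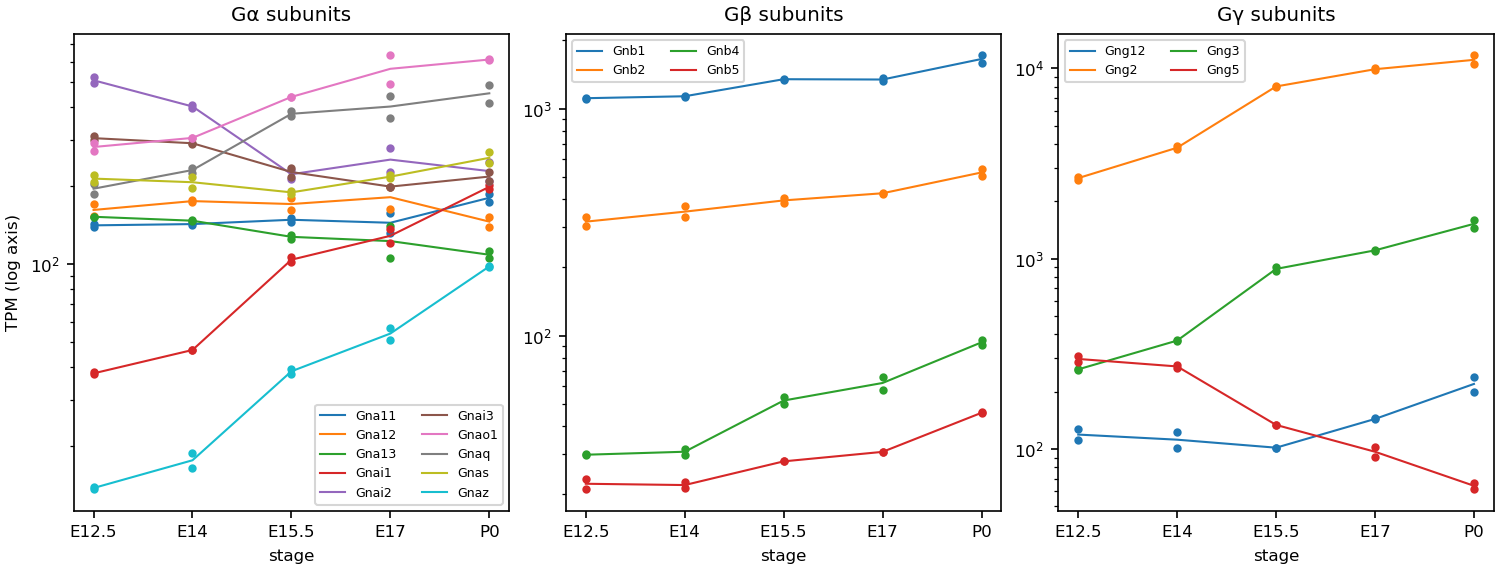
TPM (logarithmic vertical axis) of the Gα, Gβ and Gγ genes by stage; points are single libraries, 2 per stage, and lines join stage means. Gng3 and Gng5 cross after E12.5 and Gnao1 and Gnai2 between E14 and E15.5, whereas Gnb1 and Gnb2 run nearly parallel.

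Gβ subunits form a propeller that pairs tightly with Gγ, and all 4 listed Gβ genes were higher at P0 than at E12.5. Gnb1, the main Gβ of brain, was at 1104 and 1117 TPM at E12.5, 1138 and 1127 TPM at E14, 1338 and 1354 TPM at E15.5, 1360.0 and 1323 TPM at E17, and 1713 and 1592 TPM at P0. Its rise was small, 1.49-fold (log2 change 0.57, SE 0.08, adjusted p 5.3e-05), and came between E14 and E15.5 and between E17 and P0, with a change of -0.0047 (adjusted p 0.975) between E15.5 and E17. Gnb1 lies on the plus strand of chromosome 4 (155491361 to 155559269).

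Gnb2, a widely expressed Gβ, was at 304 and 332 TPM at E12.5, 371 and 332 TPM at E14, 405 and 383 TPM at E15.5, 421 and 426 TPM at E17, and 541 and 505 TPM at P0. The log2 change was 0.72 (SE 0.08, adjusted p 8.75e-06). Exons of Epo overlap those of Gnb2 on the same strand in the annotation. Gnb1 minus Gnb2 was between 1.61 and 1.86 in all 10 libraries. Over the 5 stages it was not called (exact p 0.248, also 0.248 adjusted over the 4 pairs). Its change from E12.5 to P0, which was not tested by itself, was -0.15, or -0.091 without E12.5 replicate 1.

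The less abundant Gβ genes rose further. Gnb4 was at 30.1 and 29.7 TPM at E12.5, 30.0 and 31.7 TPM at E14, 53.5 and 50.1 TPM at E15.5, 66.0 and 57.9 TPM at E17, and 91.2 and 95.8 TPM at P0, a log2 change of 1.61 (SE 0.09, adjusted p 1.38e-08). Gnb5, an atypical Gβ that pairs with the RGS proteins of the R7 group instead of a Gγ, was at 21.1 and 23.5 TPM at E12.5, 22.7 and 21.3 TPM at E14, 28.0 and 28.0 TPM at E15.5, 30.8 and 30.8 TPM at E17, and 46.1 and 45.5 TPM at P0 (log2 change 1.01, SE 0.09, adjusted p 9.57e-07). For both genes the E12.5 and E14 libraries overlapped, and the step from E12.5 to E14 was not called (adjusted p 0.815 and 0.932).

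Set against each other per library, the classes kept unequal proportions. Summed Gα TPM was 1.36 ± 0.002 times summed Gβ TPM at E12.5 and 1.08 ± 0.058 times at P0 (SD, n = 2). Summed Gγ TPM was 2.25 ± 0.107 times summed Gβ TPM at E12.5 and 2.99 ± 0.138 times at E14, and then 5.03 ± 0.028, 6.06 ± 0.157 and 5.59 ± 0.603 times in the libraries of the last 3 stages. Without Gng2 the Gγ sum was below the Gβ sum at every stage, from 0.459 times at E12.5 to 0.782 times at P0. These sums cover the listed genes only and carry no test.

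The Gα genes fall into families by the effectors they act on. Genes of the Gi/o family (Gnai1, Gnai2, Gnai3, Gnao1 and Gnaz), whose products inhibit adenylyl cyclase or act through Gβγ, summed to 1129 and 1164 TPM at E12.5 and 1353 and 1349 TPM at P0, which was 57.1% and 54.2% of the Gα sum, with its lowest share, 50.4%, at E15.5. Inside this share the members changed places. Gnai2 fell, Gnao1, Gnai1 and Gnaz rose, and Gnai3 fell less.

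Gnai2, the Gi subunit with the highest level at E12.5, was at 495 and 521 TPM at E12.5, 409 and 398 TPM at E14, 230.5 and 212 TPM at E15.5, 278 and 226 TPM at E17, and 246 and 209 TPM at P0. Its fall ended at E15.5, and the libraries of the last 3 stages overlapped. The log2 change from E12.5 to P0 was -1.16 (SE 0.11, adjusted p 1.22e-06), of which the step from E14 to E15.5 made up 74.4%. The gene lies on the minus strand of chromosome 9 (107614125 to 107635367). Gnai3, the third Gi subunit, fell from 310.0 and 299 TPM to 208 and 226 TPM (-0.49, SE 0.07, adjusted p 7.8e-05).

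Gnao1 encodes Gαo, which in neurons slows calcium channels and binds proteins of the growth cone. It was at 271 and 292 TPM at E12.5, 306 and 304 TPM at E14, 440.2 and 437 TPM at E15.5, 634 and 492 TPM at E17, and 608 and 614 TPM at P0. The E17 libraries were far apart and spanned the P0 values. The log2 change from E12.5 to P0 was 1.12 (SE 0.10, adjusted p 1.28e-06). The gene lies on the plus strand of chromosome 8 (93809966 to 93969388).

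Gnao1 minus Gnai2, the second of the tested pairs, was -0.87 and -0.84 at E12.5, -0.42 and -0.38 at E14, 0.93 and 1.04 at E15.5, 1.18 and 1.12 at E17, and 1.30 and 1.55 at P0. Gnai2 was the higher gene in all 4 libraries of the first 2 stages, and Gnao1 in all 6 libraries of the later stages. From E12.5 to P0 it rose by 2.28, with an exact p over the 5 stages of 0.00106, the smallest possible (0.00212 adjusted over the 4 pairs).

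**Figure D3:**
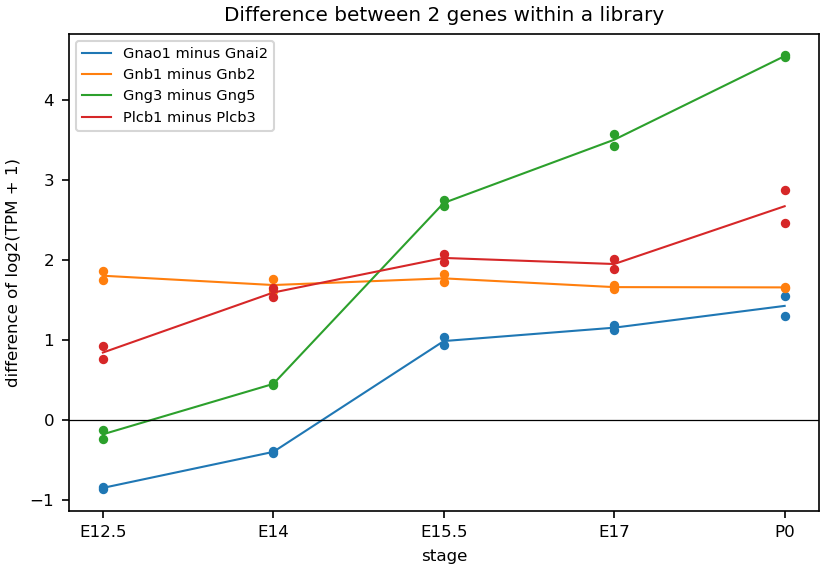
Difference of log2(TPM + 1) between the genes of 4 pairs within each library, by stage; points are libraries and lines join stage means. Gng3 minus Gng5 rises by 4.73 and Gnao1 minus Gnai2 by 2.28 from E12.5 to P0, and Gnb1 minus Gnb2 stays between 1.61 and 1.86.

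Gnai1 and Gnaz rose most of the Gα genes in proportion. Gnai1, a Gi subunit, was at 38.3 and 37.6 TPM at E12.5, 46.7 and 46.6 TPM at E14, 102 and 106 TPM at E15.5, 120.2 and 136 TPM at E17, and 194 and 201 TPM at P0 (log2 change 2.35, SE 0.08, adjusted p 2.17e-10). With all 10 libraries in the limma fit, Gnai1 was called at each of the 4 steps, from E12.5 to E14 at adjusted p 0.0443. Gnaz, which encodes the slowly cycling Gαz, was at 13.6 and 13.9 TPM at E12.5, 18.7 and 16.5 TPM at E14, 37.7 and 39.6 TPM at E15.5, 56.8 and 51.2 TPM at E17, and 97.5 and 98.2 TPM at P0 (log2 change 2.74, SE 0.09, adjusted p 2.56e-10). Its stages did not overlap at any step.

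Gnaq and Gna11 encode the subunits that activate phospholipase C β. Gnaq was at 203 and 186 TPM at E12.5, 225 and 235 TPM at E14, 369.8 and 386 TPM at E15.5, 440.5 and 366 TPM at E17, and 417 and 489 TPM at P0. Most of its log2 change of 1.21 (SE 0.10, adjusted p 6.32e-07) came between E14 and E15.5 (0.72, adjusted p 0.000156), and the E17 libraries overlapped those of E15.5 and of P0. Gna11 ran between 132 and 186 TPM in all libraries and rose by 0.35 (SE 0.09, adjusted p 0.00309). Together these genes were 16.7% of the Gα sum at E12.5 and 25.4% at P0.

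The remaining Gα genes changed little. Gnas, whose product Gαs stimulates adenylyl cyclase, ran between 186 and 268 TPM, with its lowest mean at E15.5, and was 0.26 higher at P0 than at E12.5 (SE 0.08, adjusted p 0.0098); the call was lost without E12.5 replicate 1 (0.0849) or without P0 replicate 1 (0.0686). Gnas has several start sites and an antisense partner, Nespas, and a value per gene does not separate its transcripts. Gna13, of the G12/13 family, fell from 152 and 152 TPM to 105 and 112 TPM (-0.48, SE 0.11, adjusted p 0.00167). Gna12, of the same family, was at 153 and 169.9 TPM at E12.5, 198 and 163 TPM at E17, and 152 and 139 TPM at P0. Its log2 change from E12.5 to P0 was -0.15 (SE 0.10, adjusted p 0.204) and had the other sign, 0.13, under median-of-ratios scaling, and it was called lower from E17 to P0 (-0.30, adjusted p 0.034).

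**Figure D4:**
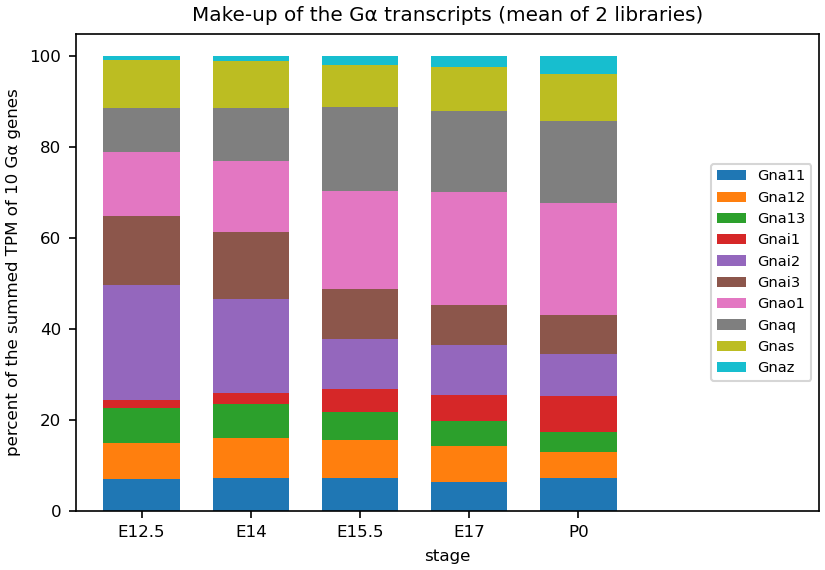
Share of each Gα gene in the summed TPM of the 10 Gα genes (vertical axis, percent, mean of 2 libraries) by stage. Gnai2 shrinks from 25.3% at E12.5 to 9.13% at P0, while Gnao1 grows from 14.02% to 24.5% and Gnaq from 9.70% to 18.2%.

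Among the RGS genes, those of the R7 group went from 2 of the 3 lowest means of the 29 at E12.5 to the 2 highest of the RGS class at P0. R7 proteins act on Gαo and other Gi/o subunits and need Gβ5 for stability. Rgs7 was at 1.58 and 1.08 TPM at E12.5, 2.24 and 2.33 TPM at E14, 10.2 and 12.2 TPM at E15.5, 19.0 and 21.8 TPM at E17, and 45.8 and 49.6 TPM at P0. The P0 mean was 35.8 times the E12.5 mean (log2 change 4.39 on the log2(TPM + 1) scale, which understates it; SE 0.14, adjusted p 1.26e-10). With all 10 libraries in the limma fit, Rgs7 was called at each of the 4 steps, from E12.5 to E14 at adjusted p 0.0434. Rgs7 rose most of the 29 from E17 to P0 (1.19, adjusted p 9.52e-05). It lies on the minus strand of chromosome 1, from 175059087 to 175492500.

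Rgs6, its close relative, rose earlier. It was at 2.01 and 2.02 TPM at E12.5, 6.58 and 6.85 TPM at E14, 34.4 and 32.9 TPM at E15.5, 42.3 and 34.6 TPM at E17, and 51.4 and 61.2 TPM at P0. It had the largest rise of the 29 from E12.5 to E14 (1.35, SE 0.12, adjusted p 0.000435) and from E14 to E15.5 (2.17, SE 0.12, adjusted p 1.58e-07), which a pseudocount of 10 TPM made 0.48 and 1.38. From E15.5 to E17 its change of 0.18 was not called (adjusted p 0.300). The change from E12.5 to P0 was 4.24 (SE 0.12, adjusted p 7.04e-11). Rgs6 lies on the plus strand of chromosome 12 (82588292 to 83162056).

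The R7 genes can be read against their partner. Rgs6 and Rgs7 together were at 0.151 ± 0.027 times the TPM of Gnb5 at E12.5 and 0.410 ± 0.031 times at E14 (SD, n = 2), and then 1.60 ± 0.016, 1.91 ± 0.115 and 2.27 ± 0.230 times in the libraries of the last 3 stages. Gnb5 was thus above the sum of Rgs6 and Rgs7 in all 4 libraries of E12.5 and E14 and below that sum in all 6 later ones. Rgs7 by itself was still below Gnb5 in the libraries of E15.5 and E17. These ratios are given with no test.

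Rgs10, a small RGS protein that acts on Gi/o subunits, was at 4.30 and 3.20 TPM at E12.5, 6.31 and 5.16 TPM at E14, 7.44 and 8.59 TPM at E15.5, 10.02 and 9.42 TPM at E17, and 19.9 and 16.0 TPM at P0 (log2 change 1.998, SE 0.15, adjusted p 2.04e-07). Rgs12 and Rgs3, larger multidomain RGS proteins, were the main RGS transcripts at E12.5, at 56.7% and 25.9% of the summed RGS TPM, and were 11.2% and 5.83% of it at P0. Rgs12 went from 21.9 and 24.7 TPM to 15.7 and 17.4 TPM (-0.47, SE 0.14, adjusted p 0.00978), and Rgs3 from 9.81 and 11.5 TPM to 9.10 and 7.97 TPM (-0.29, SE 0.12, adjusted p 0.0394). Neither fall held under quantile normalization (-0.15, adjusted p 0.198, for Rgs12 and 0.20, adjusted p 0.0929, for Rgs3) or under median-of-ratios scaling (-0.21, adjusted p 0.109, and -0.04, adjusted p 0.741). The fall of Rgs12 was also lost without E12.5 replicate 2 (adjusted p 0.0815) or P0 replicate 1 (0.0763), and that of Rgs3 when any one of 6 libraries was left out (adjusted p up to 0.288), each of the E14 and E15.5 libraries, E12.5 replicate 2 and P0 replicate 2.

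**Figure D5:**
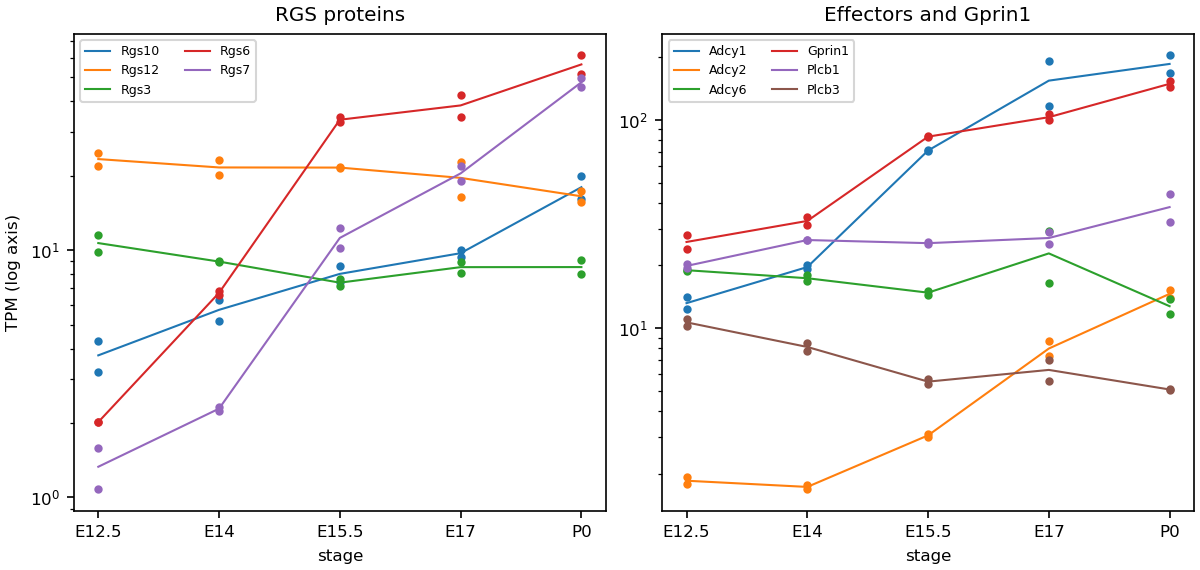
TPM (logarithmic vertical axis) of the RGS genes, and of the adenylyl cyclase, phospholipase C β and Gprin1 genes, by stage; points are single libraries, 2 per stage, and lines join stage means. Rgs6 and Rgs7 start near 2 TPM or below and end between 45.8 and 61.2 TPM, and the E17 libraries of Adcy1 lie apart at 192 and 117 TPM.

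The adenylyl cyclases make cyclic AMP and differ in what controls them. Adcy1, which calcium and calmodulin stimulate, was at 12.3 and 14.1 TPM at E12.5, 19.97 and 19.3 TPM at E14, 71.7 and 70.8 TPM at E15.5, 192 and 117 TPM at E17, and 167 and 204 TPM at P0. The rise was 14.1-fold from E12.5 to P0 (log2 change 3.72, SE 0.18, adjusted p 4.32e-09), and the E17 and P0 libraries overlapped. The gene lies on the plus strand of chromosome 11 (7063489 to 7178506).

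Adcy2, which Gβγ can stimulate, stayed low for longer. It was at 1.78 and 1.92 TPM at E12.5, 1.77 and 1.68 TPM at E14, 3.10 and 3.003 TPM at E15.5, 8.64 and 7.30 TPM at E17, and 15.2 and 13.9 TPM at P0 (log2 change 2.45, SE 0.11, adjusted p 3.13e-09). Its rise was the largest of the 29 from E15.5 to E17 (1.14, SE 0.11, adjusted p 0.000162; 0.46 with a pseudocount of 10 TPM). Measured against the mean of E12.5 and P0, E15.5 was at -0.72 on the log2 scale (adjusted p 0.000353; -0.39 with that pseudocount), the lowest value of the 29 for that comparison.

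Adcy6, which calcium and Gi inhibit, was at 18.9 and 19.1 TPM at E12.5, 16.8 and 17.9 TPM at E14, 14.5 and 15.1 TPM at E15.5, 29.2 and 16.5 TPM at E17, and 13.8 and 11.6 TPM at P0. One E17 library stood apart, and the difference between the E17 libraries, 0.79 on the log2 scale, was the largest between replicates in the 29 genes. The fall from E12.5 to P0 was -0.54 (SE 0.20, adjusted p 0.0247). It was not called under quantile normalization (-0.16, adjusted p 0.336), median-of-ratios scaling (-0.28, adjusted p 0.140), or without E12.5 replicate 1 (0.0788), E12.5 replicate 2 (0.0869) or P0 replicate 2 (0.168). The fall from E17 to P0 (-0.75, adjusted p 0.0118) was -1.14 without E17 replicate 2 and -0.35 when that library was the one kept, and was not called without P0 replicate 2 (0.0959). Of the summed TPM of the 3 cyclases, Adcy6 made up 55.9% at E12.5 and 6.05% at P0, and Adcy1 38.7% and 87.0%.

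Phospholipase C β cleaves a membrane lipid to release inositol trisphosphate and diacylglycerol. Plcb1, the form that Gαq drives in cortical neurons, was at 20.3 and 19.4 TPM at E12.5, 26.4 and 26.6 TPM at E14, 25.3 and 25.9 TPM at E15.5, 28.8 and 25.3 TPM at E17, and 32.4 and 43.9 TPM at P0 (log2 change 0.89, SE 0.13, adjusted p 5.97e-05). Plcb3, a form also open to Gβγ, was at 10.2 and 11.1 TPM at E12.5, 8.46 and 7.77 TPM at E14, 5.67 and 5.39 TPM at E15.5, 7.05 and 5.54 TPM at E17, and 5.04 and 5.09 TPM at P0 (-0.94, SE 0.12, adjusted p 2.24e-05). Exons of Ppp1r14b on the other strand overlap those of Plcb3, and whether the counting used strand is not known. Plcb1 minus Plcb3 was 0.93 and 0.76 at E12.5 and 2.47 and 2.88 at P0, a rise of 1.83, or 1.13 with a pseudocount of 10 TPM. The exact p over the 5 stages was 0.00212 (0.00282 adjusted over the 4 pairs).

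Gprin1 encodes a growth cone protein that binds activated Gαo and its relatives and promotes neurite growth. It was at 23.9 and 28.0 TPM at E12.5, 34.1 and 31.3 TPM at E14, 82.5 and 83.7 TPM at E15.5, 107 and 99.4 TPM at E17, and 144 and 154 TPM at P0. Its libraries did not overlap between neighbouring stages, and the log2 change was 2.48 (SE 0.09, adjusted p 5.29e-10). It lies on the minus strand of chromosome 13 (54736671 to 54749874).

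The largest of the 4 step changes was that from E14 to E15.5 for 17 genes, that from E17 to P0 for 11 and that from E15.5 to E17 for 1, Adcy2. From E12.5 to E14, 5 of 29 genes were called, all higher (8.73% of all genes tested were called, 3.95% higher and 4.78% lower): Rgs6, Gng2, Gng3, Rgs7 and Gnai1. This count fell when any library of E12.5, E14, E15.5 or P0 was left out and rose when either E17 library was. For counts with a library left out, here and below, the share of all genes called in the same fit is not given. From E14 to E15.5, 19 genes were called (51.7% of all genes tested), 15 higher and 4 lower (18.4% and 33.3%); without either E17 library, 7 were lower. The 4 lower genes were Gng5, Gnai2, Plcb3 and Gnai3, and the leading risers were Rgs6, Rgs7, Adcy1 (1.81, adjusted p 9.23e-06) and Gprin1 (1.32, adjusted p 7.86e-07).

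From E15.5 to E17, 10 genes were called (25.0% of all genes tested), 9 higher and 1, Gng5, lower (14.4% and 10.6%). This step rested on single libraries: 4 of 29 genes were called without E15.5 replicate 1, 5 when E15.5 replicate 2 was left out, and 18 when E17 replicate 2 was. In the last step, to P0, 19 genes were called (41.7% of all genes tested), 16 higher and 3 lower (12.9% and 28.8%), the lower ones being Adcy6, Gng5 and Gna12. Without E17 replicate 2, 7 were lower, and without P0 replicate 2, 1 was. All 4 Gβ genes were among those called higher at this last step.

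A bend in the course of a gene was tested as E15.5 against the mean of E12.5 and P0. Of the 29 genes, 14 were called (28.4% of all genes tested), 7 above and 7 below that mean (12% and 16.5%). Rgs6 was furthest above (1.40, SE 0.11, adjusted p 6.11e-06; 0.63 with a pseudocount of 10 TPM), followed by Gng2 (0.57, adjusted p 0.00221) and Adcy1 (0.50, adjusted p 0.0358). Furthest below were Adcy2, Gng12 (-0.66, adjusted p 0.000441) and Gnai2 (-0.62, adjusted p 0.000638). The count of 14 was 8 without E12.5 replicate 2, and 7 and 6 when replicate 1 or replicate 2 of E15.5 was left out.

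Other genes of the pathway were read from lists of symbols, of which the table held a part, and are to be set beside all genes tested, of which 27.1% were called higher and 51.0% lower, with a median of -0.27. Of 72 listed G protein coupled receptors, 7 were in the table, and from E12.5 to P0 6 were called higher and 1 lower, against 27.1% and 51.0% of all genes tested, with a median of 1.66. Grm5, a Gq-coupled glutamate receptor, rose most, from 2.34 and 2.30 TPM to 28.5 and 31.5 TPM (3.22, adjusted p 1.57e-10). Lpar1, a lysophosphatidic acid receptor, fell from 62.6 and 59.2 TPM to 3.83 and 3.76 TPM (-3.69, adjusted p 1.76e-10).

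Of 9 chaperones, exchange factors and related regulators, 3 were called higher and 3 lower (27.1% and 51.0% of all genes tested), with a median of 0.01. Rap1gap, which binds some Gi/o subunits and inactivates Rap, rose from 4.13 and 4.83 TPM to 30.4 and 27.6 TPM (2.46, adjusted p 8.19e-09). Gpsm2, which binds Gi subunits and orients the mitotic spindle, fell from 71.9 and 71.5 TPM to 12.1 and 12.3 TPM (-2.46, adjusted p 5.25e-10). Of 3 receptor kinases and arrestins, Arrb1, an arrestin, was called higher (1.63, adjusted p 2.15e-07) and Grk6 lower (-0.27, adjusted p 0.0181).

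Downstream of the G proteins, 18 genes of cyclic AMP signalling were tested, of which 9 were called higher and 4 lower (27.1% and 51.0% of all genes tested), with a median of 0.24. Prkar1b, a neuronal regulatory subunit of protein kinase A, rose from 20.8 and 22.5 TPM to 451 and 434 TPM (4.29, adjusted p 1.84e-11). Creb1, a transcription factor that the kinase activates, fell by 1.14 (adjusted p 4.99e-07). Of 12 targets of Gβγ, Gq and G12/13, 6 were called higher and 1 lower (27.1% and 51.0% of all genes tested), with a median of 0.37. Rasgrp2, a Rap exchange factor that calcium controls, rose from 2.01 and 1.78 TPM to 34.9 and 32.0 TPM (3.57, adjusted p 1.7e-10).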

How the data were processed

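The deposited TPM (1 column per library) were used as the authors made them. STAR, Subread and the build GRCm38.p5 are named in the submitters' processing notes, without role, while the sources used here give neither the lengths and annotation nor how the rows were chosen. Columns were matched to libraries by name, and 0 columns lacked a sample.

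Genes with a mean under 1 TPM were left out (6048 of 6147 remained). limma 3.58.1 in R 4.3.3 was fitted to log2(TPM + 1), with 1 mean per stage over all 10 libraries, 5 residual degrees of freedom and a variance trend; p was adjusted by Benjamini-Hochberg and called under 0.05. The median SE of a change from E12.5 to P0 was 0.107. In simulated tables of 6048 genes, the fit called, from E12.5 to P0, 190 of 200 genes given a log2 change of 1 and 131 of 200 given 0.5. It also called 4 and 10 unchanged genes. Only 200 genes were changed there, whereas 78.2% of all genes tested were called in the data. These numbers need not hold for the data.

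The members, gene lists and pairs were chosen with earlier results of these data known. Every library's value is given for the most abundant and the most changed genes of each role, those with the largest change at a step, and the pairs; the other genes are given by range. From each pathway list, the called genes with the largest rise and fall and a mean of at least 5 TPM are named, except that the gene with the largest fall among the targets of Gβγ, Gq and G12/13 is not reported here. Summed markers of astrocytes (5 genes) were 343 and 370.1 TPM at E12.5 and 285 and 290.1 TPM at P0, of intermediate progenitors (2) 261 and 269 against 38.5 and 36.4, of oligodendrocyte lineage (1) 0.488 and 0.531 against 1.16 and 1.17, of interneurons (2) 37.2 and 36.8 against 39.1 and 37.7, of striatal neurons (2) 51.4 and 51.2 against 105 and 109, of microglia (1) 7.96 and 8.23 against 7.81 and 7.07, and of vessels (1) 13.9 and 15.3 against 1.28 and 1.02. Of the astrocyte markers, 4 were called higher from E12.5 to P0 and 1 lower (27.1% and 51.0% of all genes tested). Aldoc, the lower one, was at 260 and 282 TPM at E12.5 and 124 and 129 TPM at P0. Gfap rose most, from 0.114 and 0.195 TPM to 27.7 and 25.5 TPM. Positions are from GENCODE M21 (GRCm38). Python 3.11.15 was used for the tables, with numpy 2.4.6 and pandas 2.3.3, and matplotlib 3.10.9 for the figures.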

Additional observations from a re-analysis of the deposited data

How the results depend on the processing

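The fits were repeated with other pseudocounts (0.1 and 10 TPM), without a filter or with 5 TPM as the lowest mean, under median-of-ratios scaling and quantile normalization, and with no variance trend, only the libraries of the stages compared, a replicate block, and each library left out in turn. From E12.5 to P0, 24 of the 28 called genes kept direction and call under all of them; the exceptions were Adcy6, Gnas, Rgs12 and Rgs3. Direction and call do not fix the size, which a pseudocount of 10 TPM lowered by over 1.5 times for Rgs7, Rgs6, Rgs10, Adcy2, Plcb3, Adcy6 and Rgs3 and for Plcb1 minus Plcb3 (1.13). Signs turned for Gna12 (0.13 under median-of-ratios scaling) and Rgs3 (0.20 under quantile normalization); the cause was not tested. The count from E12.5 to E14, 5 genes, was 3 with a pseudocount of 10 TPM, 3 without a filter, 9 under quantile normalization, 10 under median-of-ratios scaling and 15 (12 higher, 3 lower) with only the libraries of the 2 stages, and 1 to 13 when single libraries were left out. With only the libraries of the 2 stages, fewer than in the fit to all 10, it was 1 for the step to E17 and 12 for the step to P0. From E14 to E15.5 it was then 24, with 16 higher and 8 lower, and why it moved was not tested. Without single libraries it ran from 4 to 18 from E15.5 to E17, where 8 were higher and 3 lower without E17 replicate 1, and from 6 to 15 for E15.5 against the mean of E12.5 and P0. From E17 to P0 it was 16 higher and 7 lower without E17 replicate 2. Deviations of same-numbered libraries correlated between -0.375 and 0.107 over pairs of stages. Whether the replicate numbers pair the libraries is not settled by this, since a weak pairing need not show in such correlations. With the replicate block, 3 genes were called from E12.5 to E14 and 27 from E12.5 to P0, and Rgs3 was not called (adjusted p 0.0559). The read depth is unknown, so genes of a few TPM have an unknown counting error. Shares of all genes called are given only for the fit described first. Whether counts under the other settings moved with the count over all genes is not shown.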
